A study of Mus musculus with 3 samples.

Results

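ATP-dependent chromatin remodellers are multi-subunit machines in which a motor protein of the SNF2 family slides, evicts or exchanges nucleosomes, and the other subunits decide where and how it works. The SWI/SNF, ISWI, CHD and INO80 families differ in their motor and in the subunits around it, and many positions in a complex can be filled by alternative, closely related genes. In macrophages, SWI/SNF and the CHD4-containing NuRD complex are known to shape the response to bacterial lipid A at inflammatory genes.

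The genes described here were those whose symbol begins with Smarc followed by a letter from a to e, with Arid and a digit, or with Ino80, or is Chd and a digit, and that had at least 1 protein-coding transcript in the annotation. The rule found 37 genes among 21901 genes with a protein-coding transcript, in a table of 55536 annotated genes. They comprised 12 SWI/SNF genes, 4 ISWI and other SNF2 genes, 9 CHD genes, 5 INO80 genes and 7 other ARID genes. A further 3 symbols matched the pattern but had no protein-coding transcript and were left out. The name "remodeller subunit" holds for most of the set but not all of it: the 7 ARID3, ARID4 and ARID5 genes encode DNA-binding regulators named for the same domain as Arid1a, and Smarcad1 and Smarcal1 encode motors that are not subunits of the 4 classical families.

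RNA was taken from the chromatin fraction of primary macrophages grown from bone marrow of C57BL/6J mice, depleted of ribosomal RNA and sequenced as total RNA. Chromatin-bound RNA is rich in transcripts still being made or spliced, so its levels are not those of cytoplasmic mRNA. All 3 libraries belonged to 1 group: cells were given Lipid A, the endotoxin core sensed by Toll-like receptor 4, at 100 ng/ml for 12 h, left without it for 12 h, and given 100 ng/ml again for 15 min. With no untreated or single-exposure group in the series used here, no change with treatment could be measured. The libraries are labelled as biological replicates but carry the same donor label, so p-values or SDs over them may measure technical differences in part. Age and sex were not recorded by the submitters.

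The libraries held 14609979, 17423948 and 24162551 expected counts in replicates 1, 2 and 3, from 1000, 250 and 500 ng of starting RNA. The members took 0.431%, 0.455% and 0.404% of them. Features shorter than 200 nt held 43.3%, 38.8% and 35.5% of all TPM (transcript abundance corrected for length and scaled to a fixed total), so the same TPM meant a different share of longer RNA in each library. All 8 macrophage markers reached 1 TPM, led by Adgre1 at 330 TPM ± 55.6 (SD, n = 3), while no neutrophil, lymphocyte, stromal, erythroid or mast cell marker did in the gene table. Of 4 dendritic markers, Zbtb46 reached 1.58 TPM ± 0.165. The read-based values put 2 neutrophil, 2 lymphocyte, 2 dendritic and 1 stromal marker at 1 TPM or more, the highest being Cd3d at 15.2 TPM, against 0.0167 in the gene table. In bulk RNA, fewer cells of a type and less RNA per cell cannot be told apart.

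At least 1 TPM was reached by 34 of the 37 members on average (91.9%), against 48.5% of all protein-coding genes. By a mean expected count of at least 10 the number was 35, against 53.5% of coding genes, and in the read-based transcript table, a second quantification of the same libraries, it was 34, against 59.9%. Of the members, 30 reached 10 TPM, as did 54.8% of the coding genes with at least 1 TPM. The median of the 34 members was 30.4 TPM, compared with 11.8 TPM over the coding genes that passed the same minimum. The members were also long genes, with a median span of 63.6 kb against 23.4 kb. Across genes, TPM and span had a Spearman rho of 0.33 over the 34 members and 0.23 over the expressed coding genes, given as a description of these libraries.

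**Figure D1:**
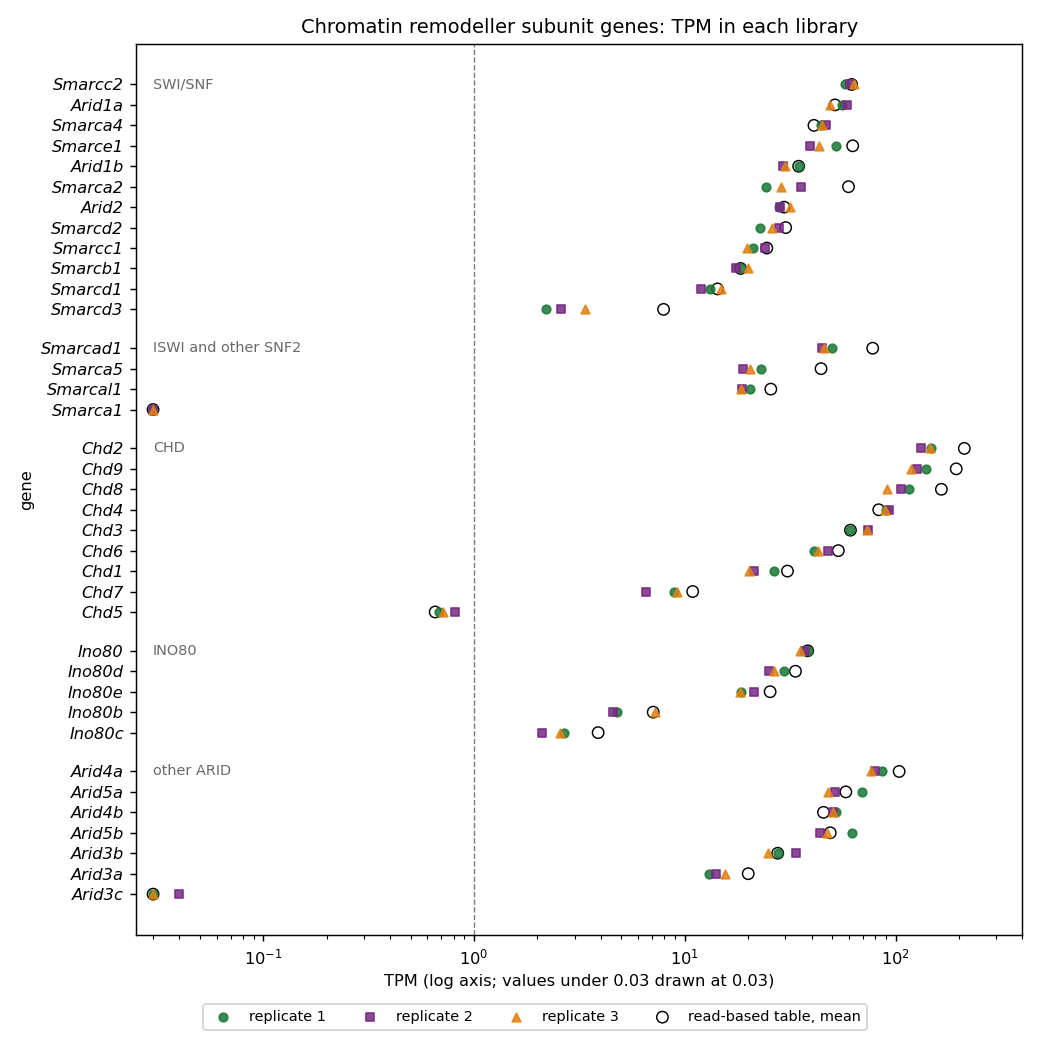
TPM of each member in the 3 libraries (filled symbols, log axis) and the mean in the read-based table (open circles), grouped by family and ordered by mean TPM; the dashed line marks 1 TPM. Chd2 lies highest at 141 TPM, Smarca1, Arid3c and Chd5 lie below the line, and open circles stand apart from the filled symbols for Smarca2, Smarca5 and Smarcd3.

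The CHD motors were the most abundant family, with a median of log2(TPM + 1) of 6.13 ± 0.16 (SD over 3 libraries). The other ARID genes followed at 5.60 ± 0.13, then SWI/SNF at 4.86 ± 0.08, ISWI and other SNF2 at 4.39 ± 0.10 and INO80 at 4.34 ± 0.12. The last 2 families lay within each other's spread. In the read-based table the order after CHD and the other ARID genes differed: ISWI and other SNF2 stood at 5.12, beside SWI/SNF at 5.07, and apart from INO80 at 4.72. The range inside a family was far wider than the steps between families: CHD members ran from 0.733 to 141 TPM and SWI/SNF members from 2.71 to 60.7 TPM. Ordered by mean TPM, the 34 expressed members formed 33 neighbouring pairs, and in 25 of these the ranges over the 3 libraries overlapped. Such an overlap does not compare the genes within a library, so it does not settle their order. Among the overlapping pairs, Chd2 was above Chd9 in each library, while Smarcc2 was above Arid5a in replicates 2 and 3 only.

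Sequence can show what an annotated retained-intron model holds, though not which RNA the reads came from. Below are the splice sites of 5 introns that stay whole inside an annotated retained-intron transcript of a member, the longest such intron of each gene that lies between coding exons of a protein-coding transcript. The model is the one with the highest TPM among the gene's retained-intron models; Arid3b also holds such an intron, of 171 nt, which is not printed. Donor windows hold 15 bases of exon and then 15 of intron, acceptor windows 15 of intron and then 15 of exon, and capitals mark the GT and AG at the intron's ends. Sequences are those of the GENCODE M21 transcripts on mm10, written 5′ to 3′ on the gene's strand.
Smarcb1-205 donor, chr10:75915049-75915078, minus strand: cccgacctacctcagGTgctcatgcatgca
Smarcb1-205 acceptor, chr10:75911642-75911671, minus strand: ctcctgtgtctccAGggagcagaaggccaa
Ino80e-209 donor, chr7:126861225-126861254, minus strand: atgaagactcctctgGTgagcaaagtcatg
Ino80e-209 acceptor, chr7:126857938-126857967, minus strand: cagccctccccacAGattcagatgccaccg
Arid4b-207 donor, chr13:14191242-14191271, plus strand: agaagggaaaaggcaGTaagtataaaattt
Arid4b-207 acceptor, chr13:14193351-14193380, plus strand: ttctttctctttcAGcaaacagtagtgaca
Ino80d-207 donor, chr1:63062021-63062050, minus strand: ggcctcacagatgcgGTgagtggtggcagc
Ino80d-207 acceptor, chr1:63061183-63061212, minus strand: tgtctccctccgcAGaagcccatccacgcc
Smarcc2-204 donor, chr10:128474395-128474424, plus strand: gagaccaccggcaagGTgcagccagtttag
Smarcc2-204 acceptor, chr10:128474668-128474697, plus strand: cctccatattcatAGgacgaggatgagaac

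These introns span 3407 nt in Smarcb1, 3287 nt in Ino80e, 2109 nt in Arid4b, 838 nt in Ino80d and 273 nt in Smarcc2. Each is removed in at least 2 annotated protein-coding transcripts, and each opens with GT and closes with AG, the usual splice signals. In all, the leading retained-intron models of 8 of 28 members held 13 introns of protein-coding transcripts whole, of which 10 lay between coding exons and 3 were removed in a single coding transcript. Of the 13, 4 overlapped another of the same gene. All 13 had GT and AG ends, which describes the annotated models and not the reads. For the other 20 members, the leading model held no complete intron of a protein-coding transcript with 15 bases on either side, so it begins or ends inside intronic sequence or differs in another way.

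SWI/SNF is built around Smarca4 or Smarca2, the alternative motors. Smarca4 (chr9:21616169-21704230) stood at 44.2, 46.7 and 44.7 TPM in replicates 1, 2 and 3, a mean of 45.2 ± 1.32. Smarca2 (chr19:26605050-26778322) stood at 24.4, 35.5 and 28.7 TPM, a mean of 29.5 ± 5.60. In the gene table Smarca4 was therefore higher in each library, by 0.61 ± 0.22 on the log2(TPM + 1) scale. In the read-based table the order turned: Smarca2 read 53.9, 66.5 and 58.8 TPM against a mean of 41.0 TPM for Smarca4, a log2 ratio of -0.53 ± 0.09. Smarca2 has 46 annotated transcripts, Smarca4 has 4. Protein-coding transcripts held 24.5% of the read-based TPM of Smarca2 and 100% of that of Smarca4, and over protein-coding transcripts alone Smarca4 was the higher in both tables, by 1.43 read-based and 2.31 alignment-based. On CPM, which are counts scaled to the library total without a correction for length, Smarca4 led by 1.24. The authors' interval for Smarca2 in the gene table, 26.7 to 34.6 TPM in replicate 1, lay wholly above the deposited value of 24.4, as did that in replicate 3 (29.4 to 35.4 against 28.7).

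Of the scaffold subunit's alternative genes, Smarcc2 read 57.8, 61.0 and 63.3 TPM and Smarcc1 read 21.1, 24.0 and 19.7 TPM. The log2 ratio of Smarcc1 to Smarcc2 was -1.45 ± 0.17, and it was below 0 in all 3 libraries in both tables; over protein-coding transcripts it was -2.17 alignment-based. Smarcc1 overlaps Dhx30 on the opposite strand (a mean of 1329 counts), whose part in the Smarcc1 level was not tested. Among the Smarcd genes, which encode a further core subunit with alternative forms, Smarcd2 led at 22.7, 27.9 and 25.9 TPM. Smarcd1 followed at 13.1, 12.0 and 14.9 TPM, and Smarcd3 was lowest at 2.19, 2.58 and 3.36 TPM. The log2 ratio was 0.89 ± 0.23 for Smarcd2 over Smarcd1 and 1.96 ± 0.16 for Smarcd1 over Smarcd3. The former was 0.73 (alignment-based) or 0.37 (read-based) over protein-coding transcripts. The latter was 0.80 in the read-based table and 2.91 (alignment-based) or 2.97 (read-based) over protein-coding transcripts. Smarcd3 rested on 44, 70 and 93 expected counts, and it overlaps Chpf2 on the opposite strand, a gene with a mean of 1486 counts. Chpf2 shares 26.6% of the 31-base words of the protein-coding Smarcd3 transcripts. Here and below, such words come from a member's protein-coding transcripts only, and matches on either strand count. The read-based table gave Smarcd3 2.93 times the TPM of the gene table, and the part of Chpf2 reads in either value was not tested.

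Arid1a, Arid1b and Arid2 are the DNA-binding subunits that set the class of SWI/SNF complex: the first 2 belong to the canonical form and Arid2 to the polybromo form. Arid1a read 55.5, 58.7 and 48.8 TPM, Arid1b 34.7, 29.2 and 29.8, and Arid2 27.9, 28.3 and 31.5. Arid1a was higher than Arid1b by 0.78 ± 0.18 and than Arid2 by 0.87 ± 0.22 in log2, in each library, while the ranges of Arid1b and Arid2 overlapped. Over protein-coding transcripts the lead over Arid1b was larger, 1.64 alignment-based and 1.48 read-based. The lead over Arid2 was smaller there, 0.73 alignment-based and 0.49 read-based. Protein-coding transcripts held 74.2% of the read-based TPM of Arid2 and 30.4% of that of Arid1b. The core subunits Smarce1 and Smarcb1 had means of 44.9 ± 6.76 and 18.6 ± 1.21 TPM. For Smarce1, 37.5% of the 31-base words of its protein-coding transcripts also occur in other genes. The main sharing gene is the copy Gm8494, which received a mean of only 0.4 counts. Of the SWI/SNF partners listed by name outside the set, 13 of 16 reached 1 TPM, the highest being Brd7 at 57.6 ± 5.01, Dpf2 at 56.2 ± 4.11, Pbrm1 at 38.5 ± 0.841 and Brd9 at 33.6 ± 0.811 TPM. The lowest were Dpf3 at 0.0367 TPM and Actl6b, listed at 0; both encode forms best known from neurons or muscle.

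ISWI remodellers space nucleosomes with Smarca5 or Smarca1 as the motor, and here only the first had reads. Smarca5 (chr8:80698507-80739497) read 22.9, 18.9 and 20.4 TPM. Smarca1 (chrX:47809368-47892974) had 0 counts in every library in both tables. Against a floor of 3 counts per library, Smarca5 was at least 224-, 228- and 312-fold higher in replicates 1, 2 and 3, a bound that covers counting error only. The authors' intervals for Smarca1 are wider and reach up to 2.13, 2.16 and 1.68 TPM, so against them the bound would be far lower. Smarca5 also has the highest shared part of any member, 40.9% of the 31-base words of its protein-coding transcripts. The main sharing gene is the copy Gm13135, which received a mean of 5.0 counts. The read-based level of Smarca5 was 2.13 times higher, at 44.3 ± 0.658 TPM.

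The partners that turn the ISWI motor into distinct complexes were mostly present, with 10 of 11 at 1 TPM or more. The large bromodomain subunits led, with Baz2b at 137 ± 1.31, Baz1b at 111 ± 8.96, Baz2a at 65.4 ± 3.20 and Bptf at 41.1 ± 2.16 TPM. Pole3 at 2.94 and Cecr2 at 0.773 TPM were the lowest. In the read-based table Cecr2 stood at 8.27 TPM, and 11 of the 11 partners reached 1 TPM. Of the other SNF2 motors, Smarcad1, which acts in heterochromatin upkeep, read 49.7, 44.7 and 45.6 TPM, and Smarcal1, which reanneals DNA at stalled replication forks, averaged 19.2 ± 1.09 TPM. All 9 listed SNF2-type motors outside the set reached 1 TPM. Atrx was the highest at 297 ± 20.1, followed by Btaf1 at 73.6, Hltf at 29.0 and Shprh at 22.6, with Rad54l at 8.61 and Hells at 6.25 the lowest. In the read-based table Rad54l stood at 38.5 and Hells at 24.6 TPM. There, Ttf2 at 11.2 and Ercc6 at 16.9 TPM were the lowest.

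Chd1 and Chd2 are motors linked to transcribed chromatin. Chd2 (chr7:73426638-73541830) read 147, 132 and 145 TPM, a mean of 141 ± 8.51 that was above 96.8% of the expressed coding genes. Chd1 read 26.6, 21.3 and 20.1 TPM, and the log2 ratio of Chd1 to Chd2 was -2.60 ± 0.19, or -1.54 over protein-coding transcripts in the alignment-based table. Part of the Chd2 locus is shared with 1810026B05Rik, a gene on the same strand with a mean of 4036 counts. Of the 31-base words of the protein-coding Chd2 transcripts, 6.07% occur in 1810026B05Rik. The part of 1810026B05Rik in the Chd2 level was not tested.

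Chd3, Chd4 and Chd5 are the motors of NuRD, which joins nucleosome remodelling to histone deacetylation. Chd4 read 90.4, 92.7 and 89.4 TPM and Chd3 read 60.9, 74.4 and 73.2 TPM, so both were abundant and Chd4 was ahead by 0.39 ± 0.15 in log2. Over protein-coding transcripts this lead was 0.17 ± 0.14 read-based and 0.26 ± 0.14 alignment-based. Chd5, a form best known from neurons and testis, was below the minimum at 0.68, 0.81 and 0.71 TPM. All 10 NuRD partners reached 1 TPM. Hdac1 stood at 49.6 ± 5.52, Mta2 at 39.9 ± 5.21, Mbd2 at 37.0 ± 7.07 and Gatad2a at 32.7 ± 6.67 TPM, while Cdk2ap1 at 6.00 and Mbd3 at 4.24 TPM were the lowest.

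The remaining CHD genes encode large motors active in development, and 2 of them ranked just below Chd2. Chd9 read 139, 127 and 118 TPM and Chd6 read 41.2, 47.7 and 43.0 TPM, a log2 ratio of 1.52 ± 0.18. Chd8, a regulator of the Wnt pathway and a gene tied to autism, read 116, 106 and 91.4 TPM. Its relative Chd7, the gene mutated in CHARGE syndrome, read 8.93, 6.53 and 9.21 TPM, 3.52 ± 0.33 lower in log2. That gap was 2.74 (alignment-based) or 2.26 (read-based) over protein-coding transcripts and 2.81 on CPM. Chd9 overlaps Gm45640 on the same strand (a mean of 2004 counts), whose part in the Chd9 level was not tested. Over protein-coding transcripts alone its lead over Chd6 was 0.47 ± 0.27 read-based and 0.54 ± 0.08 alignment-based.

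INO80 moves nucleosomes and handles the variant histone H2A.Z, and its motor gene Ino80 averaged 37.0 ± 1.63 TPM. Ino80d averaged 27.0 ± 2.22 and Ino80e 19.4 ± 1.71 TPM. Ino80b and Ino80c were much lower, at 5.52 ± 1.49 and 2.44 ± 0.30 TPM on 53 to 107 counts per library. All 9 INO80 partners reached 1 TPM, from Actr8 at 36.9, Nfrkb at 29.9, Uchl5 at 17.7 and Yy1 at 13.1 down to Ruvbl1 at 3.10 and Ruvbl2 at 2.96 TPM. In the read-based table Uchl5 stood at 61.1 TPM, above Actr8 at 58.4 TPM. The related SRCAP and p400 genes were higher: all 10 reached 1 TPM, with Trrap at 102 ± 14.2, Srcap at 86.9 ± 2.56, Brd8 at 66.3 ± 2.34 and Ep400 at 60.0 ± 5.42 at the top and Yeats4 at 5.28 and Actr6 at 4.69 TPM at the bottom.

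Among the ARID genes outside SWI/SNF, Arid4a and Arid4b encode partners of the retinoblastoma protein and of the Sin3 corepressor. Arid4a read 86.5, 79.7 and 76.3 TPM and Arid4b 52.1, 50.5 and 50.6 TPM, a log2 ratio of 0.65 ± 0.07 that was 1.37 (alignment-based) or 1.71 (read-based) over protein-coding transcripts and 1.17 in the read-based table. Arid4b overlaps Ggps1 on the opposite strand (a mean of 320.9 counts) and Gm48027 on the same strand (364.3 counts). Their part in the Arid4b level was not tested. Arid5a, whose protein is known to stabilise Il6 mRNA in macrophages, read 69.2, 51.5 and 47.9 TPM. Arid5b, a partner of the histone demethylase PHF2, read 62.2, 43.6 and 47.5 TPM. Both were highest in replicate 1 and their ranges overlapped, with a log2 ratio of 0.13 ± 0.11 that fell to -0.43 on CPM and to -0.50 (alignment-based) or -0.60 (read-based) over protein-coding transcripts; the order of the pair is thus not settled.

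Arid3a and Arid3b, DNA-binding regulators best known from lymphoid and embryonic cells, read 13.0, 14.1 and 15.6 TPM and 27.8, 33.8 and 24.8 TPM. Their log2 ratio was -0.96 ± 0.29, and it turned to 0.43 (alignment-based) or 0.26 (read-based) over protein-coding transcripts alone; on CPM it was -0.29. Arid3c was nearly absent, with 0, 1 and 0 counts.

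**Figure D2:**
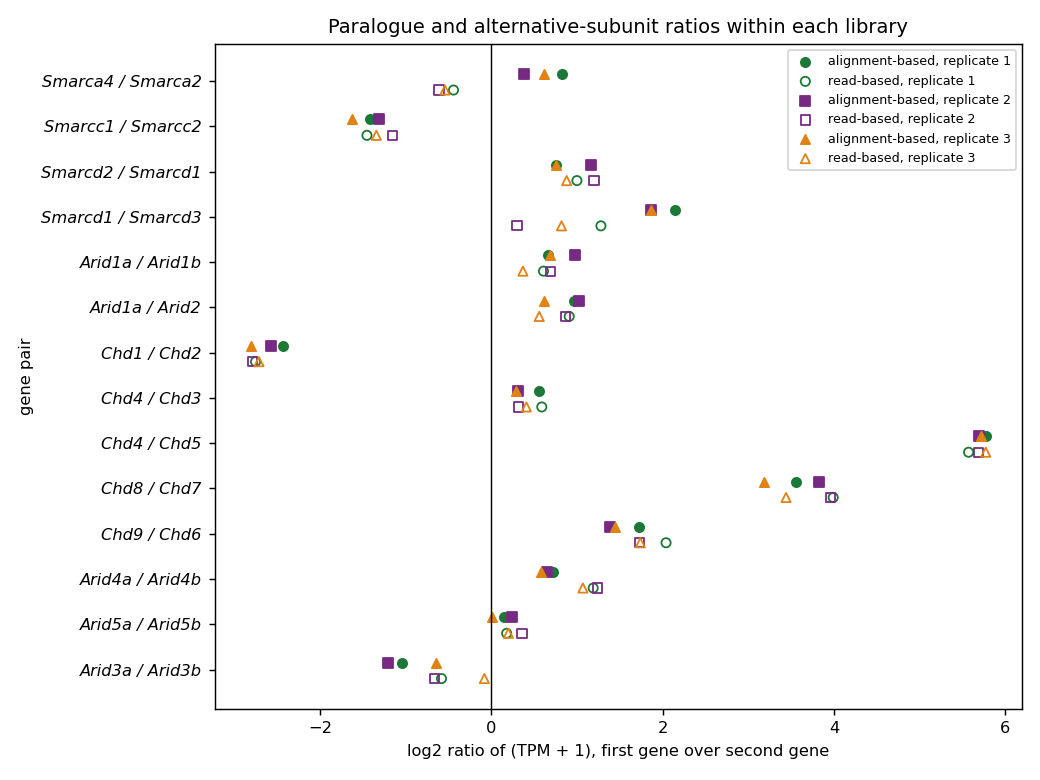
Log2 ratio of (TPM + 1) of the first over the second gene of 14 pairs, in each library, from the alignment-based table (filled) and the read-based table (open); Smarca5 over Smarca1 is left out because Smarca1 had 0 counts. Smarca4 over Smarca2 is the pair whose open symbols lie on the other side of 0 from the filled ones in every library.

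Over the 15 pairs, the first-named gene was higher in all 3 libraries in 12 and the second-named in the other 3. The pairs were named with earlier results known, so this split depends on the naming and is not a result about the genes. An exact sign-flip test over 3 libraries cannot give a 2-sided p below 0.25, so no test was made. The read-based mean was 1.5 times the gene-table mean for Chd2 and more for Smarcd3 (2.93), Smarca5 (2.13), Smarca2 (2.02), Smarcad1 (1.67), Ino80c (1.59), Chd8 (1.58) and Chd9 (1.52).

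Transcript types gave a second view of the same genes. Of the 34 members at 1 TPM or more in the read-based table, 28 have an annotated retained-intron transcript, as do 57.3% of such coding genes. In those 28 the retained-intron models took a median of 39.1% of the gene's TPM, against 45.4% over the 7515 coding genes with such a model. A share of at least 50% was found in 10 of the 28 members, and in 43.8% of those coding genes. The members' shares thus lay near or below the background of this chromatin fraction.

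The 6 highest shares came from 4 families, with SWI/SNF and the ISWI and other SNF2 group giving 2 each. Smarcd3 had 99.2%, 100% and 100% of its TPM in retained-intron models, beside the antisense overlap given above. Smarca5 had 87.0%, 88.4% and 88.6%, and Arid5a 82.9%, 79.3% and 78.8%. Smarcal1 had 75.8%, 78.1% and 74.8%, Chd8 72.0%, 75.1% and 75.0%, and Smarcd2 65.6%, 65.8% and 63.0%. These read-based shares varied little between libraries, with an SD of at most 2.22 percentage points, but they depended on the table. In the alignment-based transcript table they were 67.8% for Smarca5, 54.2% ± 9.21 for Smarcal1, 53.3% for Chd8 and 53.4% for Smarcd2. Arid5a was at 70.6% there and Smarcd3 at 100%. As a share of estimated counts, Smarca5 had 43.4%, Chd8 30.0% and Smarcd2 30.2%. At the other end, Smarca4, Chd1, Arid3a, Arid4a, Ino80c and Smarce1 have no retained-intron model, and 91.0% of the Smarce1 TPM lay in transcripts annotated as processed, without a coding frame. Across the 28 members the share had a Spearman rho of 0.52 with the number of retained-intron models the gene has, which share the annotation and the library; this is a description with no test.

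**Figure D3:**
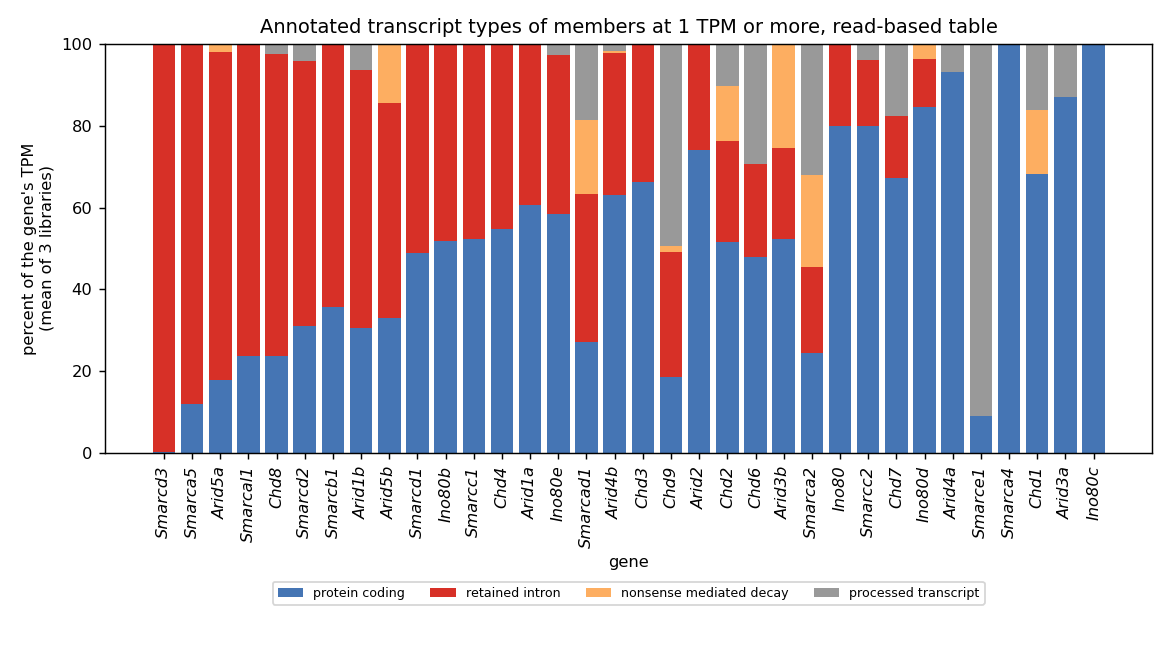
Percent of each member's TPM in protein-coding, retained-intron, nonsense-mediated decay and processed transcripts in the read-based table (mean of 3 libraries), for the 34 members at 1 TPM or more, ordered by retained-intron share. Smarcd3, Smarca5 and Arid5a lie at 99.7%, 88.0% and 80.3%, while Smarca4 and Ino80c are wholly protein-coding.

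Short models weighed heavily in TPM. The leading transcript by TPM was not protein-coding in 16 of the 34 members, against 46.7% of expressed coding genes, and was under 1000 nt in 14 of the 34, against 38.5%. Chd8-210, a retained-intron model of 428 nt, held 39.2%, 42.0% and 40.5% of the Chd8 TPM but 6.12%, 5.33% and 4.91% of its estimated counts. In the alignment-based transcript table the same model held 8.20%, 10.4% and 8.15% of TPM. As a share of estimated counts, the median over members fell to 25.1%, and that over the coding genes to 33.2%.

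By counts 5 of the 28 members had a share of at least 50%, against 32.8% of the coding genes with a retained-intron model. Smarcd3 stayed the highest at 99.7%, and Smarcal1 at 74.3% and Arid5a at 70.8% were among the 5, but Smarcb1 and Ino80e took the places after Smarcd3. Smarcb1 had 87.6% ± 1.03 of its counts in retained-intron models and Ino80e 84.6% ± 0.182, against 64.4% and 38.9% of TPM. The models printed above carried most of this: Smarcb1-205 held 66.8%, 63.8% and 66.0% of the gene's counts and Ino80e-209 held 79.5%, 82.6% and 82.0%. For Arid4b-207 the figures were 20.0%, 17.6% and 17.4%, for Ino80d-207 5.42%, 5.24% and 6.19%, and for Smarcc2-204 3.49%, 3.51% and 3.54%. The 3407-nt intron printed for Smarcb1 makes up 45.8% of its model and the 3287-nt intron of Ino80e 61.7%. Unspliced precursor RNA and a transcript that keeps an intron share this sequence, so these tables cannot tell them apart. In Ino80e, 34.8% of the 31-base words of the protein-coding transcripts also occur in other genes, mainly Doc2a, which received a mean of 0.0 counts. The retained-intron models, Ino80e-209 among them, were not part of that comparison.

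Between libraries the members moved little. The count scale used here was log2 CPM after TMM scaling, a correction for library composition, over the 14873 genes that passed a filter on low counts; 35 members passed it, all but Arid3c and Smarca1. The median deviation of a library from the mean of the other pair was -0.02, 0.06 and -0.03 for the members in replicates 1, 2 and 3, and -0.01, 0.00 and 0.00 for all genes. A deviation beyond 0.5 in log2 was reached by 0 of the 35 members in each library, against 12.7%, 9.42% and 6.00% of all genes. All genes were not matched to the members in abundance, and expressed members had a median of 30.4 TPM against 11.8 TPM for expressed coding genes. The part of abundance in this contrast was not tested. Replicate 2 was the highest library for 18 of the 35 members (34.7% of all genes), replicate 1 for 10 (36.9%) and replicate 3 for 7 (28.5%). Replicate 1 was the lowest for 16 (38.6% of all genes), replicate 2 for 11 (34.3%) and replicate 3 for 8 (27.1%). Which library led depended on the scale: on log2(TPM + 1) replicate 1 was the highest for 16 members and replicate 2 for 11, and replicate 3 was the highest for 1 with scaling by total counts and for 3 on read-based counts.

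**Figure D4:**
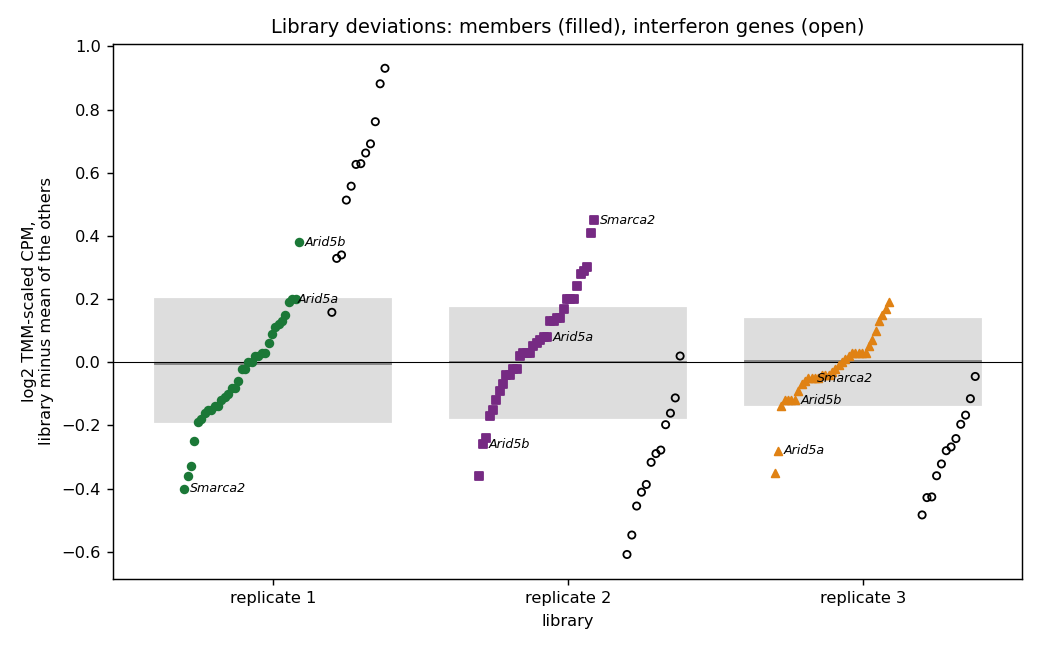
Deviation of each library from the mean of the others in log2 TMM-scaled CPM, for 35 members (filled) and 12 interferon-response genes (open); grey boxes span the quartiles of all 14873 genes and the line in each is their median. The members stay between -0.40 and 0.45, while all 12 interferon genes lie above 0 in replicate 1.

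The interferon-response genes listed for comparison were highest in replicate 1 in 12 of 12 cases, with a median deviation of 0.63, while the members' median there was -0.02. The members with the largest spread, taken from members that averaged 100 counts or more, were Smarca2, Arid3b, Arid5b, Chd6, Chd7 and Chd3, of which 4 were highest in replicate 2. Smarca2 read 6.17, 6.74 and 6.40 in log2 CPM (SD 0.283), high in replicate 2 and low in replicate 1. Arid3b read 6.13, 6.44 and 5.93 (SD 0.257), also high in replicate 2. Arid5b read 7.94, 7.51 and 7.61 (SD 0.224), the only one of the 3 that was high in replicate 1, by 0.38 over the others.

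Chd6 at 7.08, 7.49 and 7.31 (SD 0.209) and Chd3 at 7.27, 7.63 and 7.41 (SD 0.183) were again low in replicate 1. Chd7 at 5.38, 5.02 and 5.37 (SD 0.205) was low in replicate 2. The most even members were Chd2 (SD 0.0169), Arid4b (SD 0.0194) and Smarca5 (SD 0.0228). The median SD was 0.0924 over the members and 0.168 over all genes passing the filter, which again were not matched in abundance.

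The biological coefficient of variation, edgeR's estimate of the spread between libraries beyond counting error, had a median of 0.119 over the members (0.110 to 0.165) and of 0.146 over all genes. These per-gene values are drawn toward a trend over genes of like abundance. At the members' abundance the trend had a median of 0.135, so the members' median lay below that as well. Most genes lay below their own trend value, so this alone does not set the members apart. Above its own trend value lay 4 of the 35 members (28.3% of all genes): Smarca2 at 0.154, Arid3b at 0.147, Arid5b at 0.142 and Chd6 at 0.137. With replicate 3 left out the members' median was 0.164, against 0.181 over all genes. With replicate 1 left out it was 0.098, against 0.124.

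**Figure D5:**
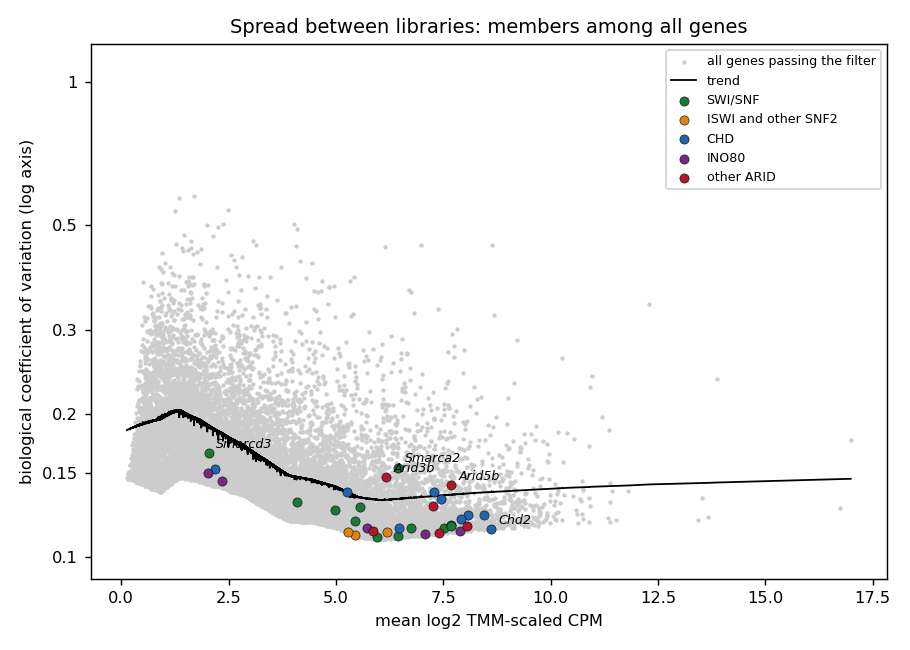
Biological coefficient of variation (log axis) against mean log2 TMM-scaled CPM, for the members by family and for all genes passing the filter (grey); the line is the trend. Smarca2, Arid3b and Arid5b lie above the line and Chd2, at 0.114, below it.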

How the data were processed

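Total RNA sequencing of chromatin-fraction RNA from 3 libraries of 1 group was analysed. Per the file headers, the authors deposited, for each library, a gene table and a transcript table with expected counts, TPM and TPM intervals (called alignment-based here) and a transcript table with estimated counts and TPM (called read-based); per the labels the build is mm10. Neither the programs behind the tables nor the level of the intervals is named in the labels and headers. Annotation was GENCODE M21.

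Members were matched by symbol. The members, gene lists and pairs were chosen with earlier results of these data known. Ratios and medians used log2(TPM + 1). Expected counts were rounded, filtered (filterByExpr) and scaled by TMM in edgeR 4.0.16 (R 4.3.3), with an intercept-only dispersion fit; the steps were tested on simulated data. Rows of no gene (1.24%, 0.482% and 0.228% of counts) were left out. Library values are given for the 12 highest members and all pair genes. They are also given for the 6 members with the largest SD at a mean count of at least 100 and the 6 highest retained-intron shares. For the 4 highest and 2 lowest partners of each complex, means over the libraries are given. Partners were ranked in the gene table, and their read-based order differs in part. Alternatives covered both tables, protein-coding transcripts only, other scalings (DESeq2 1.42.0 among them), filters, pseudocounts and leaving out each library. Totals of 14609979 to 24162551 counts limit genes under about 100 counts.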

Additional observations from a re-analysis of the deposited data

How the results depend on the processing

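Under the alternatives run, 34 or 35 members were expressed and the first gene led in 11 or 12 pairs. The pair count depends on which gene is named first. It also cannot show a stable order of each pair, because opposite reversals cancel in it. Over protein-coding transcripts it stayed at 12 while Arid5a over Arid5b turned below 0 and Arid3a over Arid3b turned above 0. Family medians of log2(TPM + 1) moved by more than the spread between libraries in the read-based table, to 5.07 (SWI/SNF), 5.95 (CHD), 5.12 (ISWI and other SNF2) and 4.72 (INO80), which puts ISWI and other SNF2 above SWI/SNF. With TPM rescaled without features under 200 nt they were 5.75, 7.04, 5.27 and 5.22, with other ARID at 6.50; over CHD members of at least 1 TPM the median was 6.33. Members highest in replicates 1 and 2 numbered 16 and 11 on log2(TPM + 1), in place of 10 and 18, so which library leads depends on the scale; those highest in replicate 3 numbered 1 with scaling by total counts only and 3 on read-based counts. The members' median coefficient of variation ranged from 0.098 to 0.164 with a library left out, and that of all genes from 0.124 to 0.181. The median retained-intron share was 43.3% in the alignment-based transcript table and 25.1% of estimated counts. By counts 5 members reached 50%, against 32.8% of the coding genes with a retained-intron model. Reversed ratios were Smarca4 over Smarca2 (-0.53, read-based), Arid5a over Arid5b (-0.50, -0.60 and -0.43) and Arid3a over Arid3b (0.43 and 0.26); the cause was not tested. No paired analysis was possible because the series used here has 1 group.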
